A study of Mus musculus with 6 samples.

Results

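The genes of S phase and DNA replication were examined as a set of 44, picked by symbol from a list of replication factors, in the 24503 gene symbols of an RNA-seq count table from mouse neural stem cells. All 44 had counts in every library, from 297 to 23575, and all 44 passed the filter on low counts that 13683 symbols passed. The cells were primary cultures from the cortex of E13.5 embryos, enriched as neurospheres and grown on laminin with FGF and EGF. Knockout cells (KO, 3 libraries) carried Phf2flox/flox alleles and the Nestin-Cre transgene B6.Cg-Tg(Nes-cre)1Kln/J, which drives Cre in neural progenitors. Control cells (WT, 3 libraries) carried the same Phf2flox/flox alleles without Cre, so both groups are floxed and Cre is present in KO alone. The labels give no number of embryos or cultures behind a library, so p-values measure the spread between these libraries, which may be technical. Total counts ranged from 33413444 to 42503715 in KO and from 39120340 to 46890314 in WT.

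DNA is copied once per cell cycle. In G1, the origin recognition complex, Cdc6 and Cdt1 load the MCM ring onto origins, a step called licensing. In S phase, Cdc45 and the GINS complex join MCM to form the CMG helicase, which unwinds the template for the polymerases, while Pcna, loaded by the RFC complex, holds polymerases on the DNA. Most of these genes are transcribed in late G1 and S phase under E2F transcription factors, so in a culture their RNA follows how many cells are cycling, and in bulk RNA fewer cells in S phase and less RNA per cell cannot be told apart.

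Phf2, the targeted gene, which encodes a histone H3 lysine 9 demethylase, had 56.3, 48.1 and 48.8 CPM (TMM-scaled counts per 1000000) in KO 1, 2 and 3, against 109, 90.4 and 77.8 CPM in WT 1, 2 and 3. The 3 KO values were all below the 3 WT values; its blocked log2 fold change (replicate number as a block, explained below) was −0.84 ± 0.0743 (SE), with adjusted p = 0.000123, and without the block −0.85 ± 0.150 with adjusted p = 0.182, both in edgeR. The counts cover the whole gene, and no source used here names the exons that Cre removes. The 10 neural stem cell markers, such as Sox2, Nes, Vim and Fabp7, were present in all libraries and summed to 9912 to 11380 CPM in KO and 9931 to 11489 CPM in WT. The 6 astrocyte markers summed to 218 to 255 CPM in KO and 353 to 522 CPM in WT, and the 8 neuron markers to 635 to 765 CPM in KO and 548 to 765 CPM in WT. The 6 oligodendrocyte lineage markers, Olig2 foremost, summed to 1427 to 1487 CPM in KO and 1447 to 1509 CPM in WT. The 5 microglia markers summed to at most 1.14 CPM in KO and 0.804 CPM in WT, the 4 endothelial markers to at most 1.72 CPM in KO and 1.96 CPM in WT, and the 6 meningeal and mural markers to at most 1.58 CPM in KO and 3.22 CPM in WT, with Aif1, C1qa, Cdh5 and Dcn at 0 in all 6 libraries. The astrocyte sum thus separated KO from WT, but its genes did not all differ. Aldh1l1 was at 39.1 ± 2.89 CPM in KO and 159 ± 47.2 CPM in WT, and Gfap at 43.7 ± 34.6 and 105 ± 86.1 CPM (mean ± SD, n = 3). Slc1a2 was at 18.4 and 33.1 CPM and Gja1 at 118 ± 32.0 and 140 ± 44.1 CPM. Aqp4 was at 18.9 and 18.6 CPM and S100b at 3.46 and 4.02 CPM. The part of the astrocyte markers in the results below was not tested.

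The replication genes were for the most part slightly higher in KO than in WT within a replicate number, and they were all higher in the libraries numbered 1 of both genotypes than in those numbered 2 and 3. Summed over the 44 genes, the level was 6013, 4146 and 4112 CPM in KO 1, 2 and 3, against 5778, 3280.5 and 3475 CPM in WT 1, 2 and 3. KO 1 and WT 1 were the highest libraries, KO 2 and KO 3 lay in the middle, and WT 2 and WT 3 were the lowest, so the groups overlapped. The same order of the number 1 libraries over the rest held in each of the 44 genes: KO 1 and WT 1 were both above all of the other 4 libraries in 44 of 44, against 30.9% of all tested genes. WT 1 thus lay above KO 2 and KO 3 in all 44, so none of the 44 could have every KO library above every WT library, which 4.49% of all tested genes had.

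**Figure D1:**
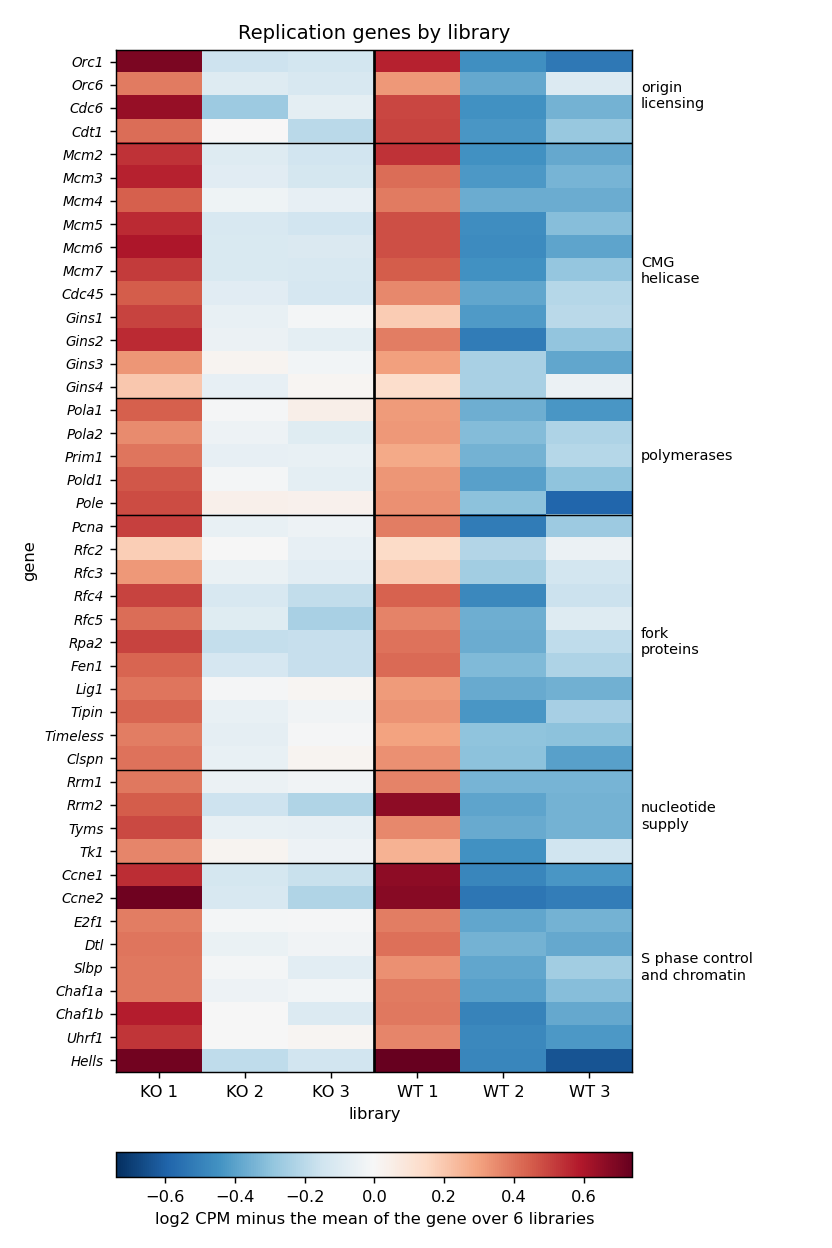
Level of the 44 replication genes (rows, grouped by function) in each library (columns, KO left of WT), as log2 CPM minus the gene's mean over the 6 libraries; red is above that mean and blue below. The columns KO 1 and WT 1 are red in all 44 rows, and WT 2 and WT 3 hold the bluest cells.

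**Figure D2:**
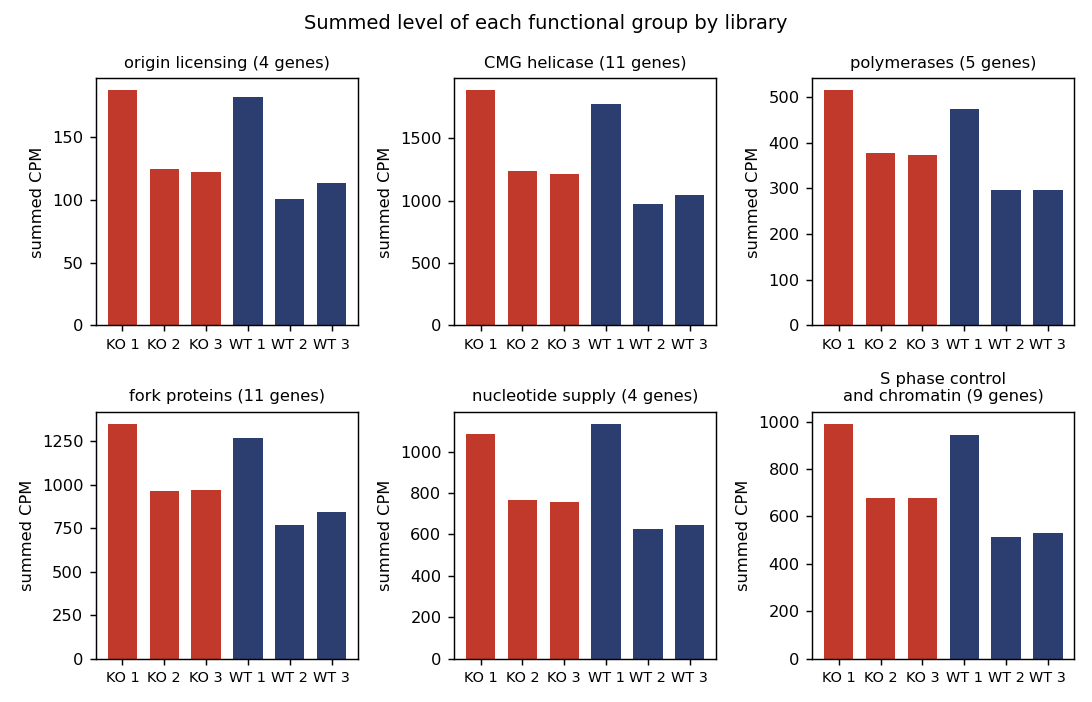
Summed CPM of each functional group (one panel per group, axes from 0) in the 3 KO libraries (red) and the 3 WT libraries (blue). KO 1 and WT 1 have the tallest bars in every panel; for the CMG helicase genes they reach 1884 CPM in KO 1 and 1776 CPM in WT 1.

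For KO against WT over all 6 libraries without a block, 0 of the 44 genes passed edgeR's quasi-likelihood test at an adjusted p under 0.05 (Benjamini-Hochberg over all tested genes), where 0.0585% of all tested genes did. None of the 44 had an unadjusted p under 0.05 either, and DESeq2 also called 0 of the 44 (against 0.468% of all tested genes higher). The median log2 fold change of the 44 was 0.19, against 0.0053 over all tested genes. Blocking on the replicate number compares KO with WT inside each number, and in that fit 9 of the 44 rose in KO (20.5%, against 3.33% of all tested genes) and 0 fell (against 6.46%). The median was then 0.21 on the log2 scale, a 1.16-fold difference, against 0.0068 over all tested genes, and all 44 fitted values were positive. The 9 genes that rose were Mcm3, Mcm6, Pola1, Pold1, Pole, Pcna, Lig1, Chaf1b and Uhrf1, with adjusted p from 0.0142 to 0.0485 with the block. Without it their log2 fold changes ran from 0.22 (Mcm3) to 0.33 (Pole), with SEs from 0.225 to 0.321, and the adjusted p of all 44 genes was 0.999 in edgeR. The next in line were Gins1, Gins2 and Tyms, with adjusted p = 0.0515, 0.0528 and 0.0556 in the same edgeR fit, with log2 fold changes of 0.29, 0.29 and 0.24, inside the range of the 9.

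The calls rested on how the libraries were combined. In numbers 2 and 3 alone, without a block, 9 of the 44 rose (20.5%, against 1.82% of all tested genes), and 5 of these were among the 9 of the blocked fit, namely Mcm6, Pola1, Lig1, Chaf1b and Uhrf1. With KO 2 and KO 3, the most alike libraries, summed to 1 library and number 1 as the block, 0 rose (against 1.13%), with the lowest adjusted p at 0.0831 and 14 of 44 at an unadjusted p under 0.05 in edgeR, against 2368 of 13930 tested genes. The median of the 44 in that fit was 0.19 on the log2 scale, against 0.21 with the replicate block over 6 libraries. Upper-quartile scaling with the block left 4 (9.09%, against 2.39%): Pola1, Pole, Chaf1b and Uhrf1. With the block, RLE scaling gave 12 (27.3%, against 3.33%) and DESeq2 11 (25.0%, against 3.75%), and number 1 against the others as the block gave 9 (20.5%, against 3.73%). Leaving out number 2 in the blocked fit left 2 of the 44 higher, against 510 of 13756 tested genes. With the block and 1 number left out, Uhrf1 passed each time, with adjusted p from 0.00834 to 0.0362 in edgeR. Chaf1b missed without number 2 (adjusted p = 0.217), and Pola1 missed without number 2 (adjusted p = 0.0615) and without number 3 (adjusted p = 0.0620).

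**Figure D3:**
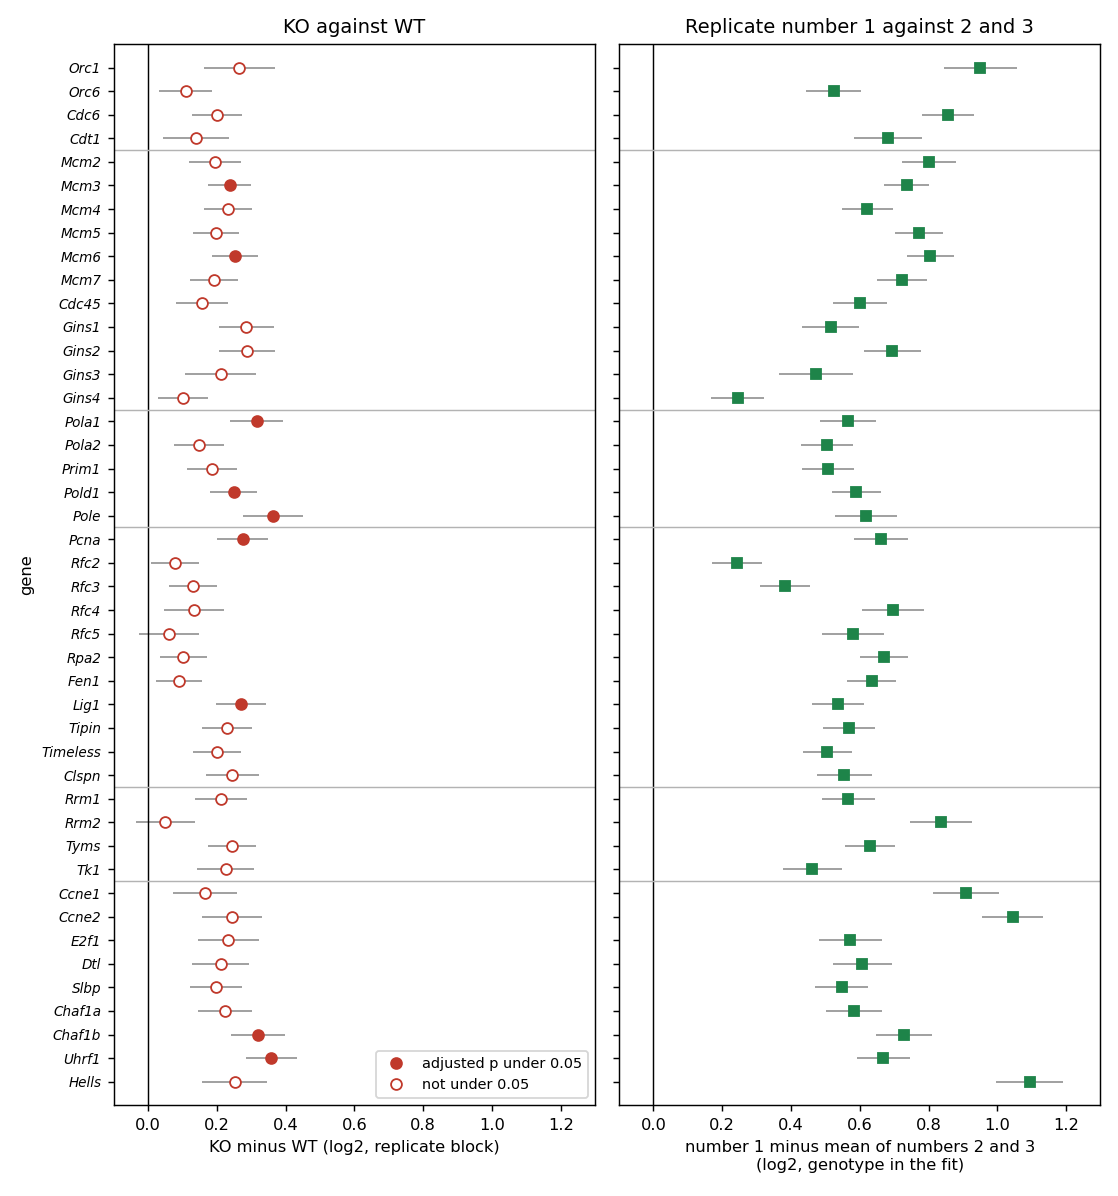
Left: KO minus WT on the log2 scale with the replicate block, one dot per gene with its SE, filled where adjusted p is under 0.05. Right: number 1 minus the mean of numbers 2 and 3 on the same log2 axis, with its SE; the right-hand values run from 0.24 to 1.09 and exceed the left-hand value in all 44 genes.

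Of the 4 origin licensing genes, none was called in KO. Cdc6, the ATPase that helps load MCM, had 47.5, 25.2 and 28.9 CPM in KO 1, 2 and 3, against 42.8, 22.3 and 23.9 CPM in WT 1, 2 and 3. Orc1, the largest subunit of the origin recognition complex, had 16.3, 9.08 and 9.16 CPM in KO, against 15.0, 7.36 and 6.99 CPM in WT. Both were above the WT library of the same number each time. Their blocked log2 fold changes were 0.20 ± 0.0736 and 0.27 ± 0.104 (SE), with adjusted p = 0.127 and 0.151 in edgeR. Orc6, another subunit of the same complex, had 65.1, 46.7 and 45.9 CPM in KO and 62.3, 38.3 and 46.4 CPM in WT, so KO 3 and WT 3 were close. Cdt1, the other loader, was lower in KO 1 than in WT 1, at 58.6 and 62.1 CPM, and higher in KO 2 than in WT 2, at 44.04 and 32.7 CPM.

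Among the 11 CMG helicase genes, Mcm3 and Mcm6 rose with the block. Mcm3 had 273, 174 and 168 CPM in KO 1, 2 and 3, against 245, 137 and 145 CPM in WT 1, 2 and 3. Mcm6 had 306, 187 and 188 CPM in KO, against 281, 146 and 154 CPM in WT. For both genes KO exceeded WT within each number, while WT 1 exceeded KO 2 and KO 3. The blocked log2 fold changes were 0.24 ± 0.0637 for Mcm3 and 0.25 ± 0.0669 for Mcm6 (SE), with adjusted p = 0.0445 and 0.0410 in edgeR. The 6 MCM genes, whose products form 1 ring, had blocked values in a narrow band, from 0.19 (Mcm7) to 0.25 (Mcm6). The 4 GINS genes spread wider, from 0.10 (Gins4) to 0.29 (Gins2), and Cdc45, which joins GINS and MCM, was at 0.16 ± 0.0753 (SE). Mcm2 had 283 CPM in KO 1 and 283 CPM in WT 1, against 183 and 177 CPM in KO 2 and KO 3 and 143 and 150.2 CPM in WT 2 and WT 3, so its KO difference lay in numbers 2 and 3.

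Of the 5 polymerase genes, 3 rose with the block, and all 5 were higher in KO within each of the 3 numbers, against 22.6% of all tested genes. Pole, the catalytic subunit of polymerase epsilon on the leading strand, had 108, 79.2 and 79.0 CPM in KO 1, 2 and 3, against 97.9, 62.6 and 51.6 CPM in WT 1, 2 and 3. Pola1, the catalytic subunit of polymerase alpha, which starts new strands with primase, had 104, 76.6 and 79.5 CPM in KO, against 95.8, 60.1 and 57.2 CPM in WT. The lowest library was WT 3 for both. Pold1, the catalytic subunit of polymerase delta on the lagging strand, had 181, 131 and 125 CPM in KO, against 166, 99.9 and 107 CPM in WT. The blocked log2 fold changes were 0.36 ± 0.0875 for Pole, the largest of the 44, 0.32 ± 0.0776 for Pola1 and 0.25 ± 0.0683 for Pold1 (SE), with adjusted p = 0.0283, 0.0314 and 0.0485 in edgeR. Pola2 and the primase gene Prim1 were at 0.15 and 0.19 and were not called.

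Among the 11 fork proteins, Pcna and Lig1 rose with the block and the clamp loader genes were among those with the smallest differences. Pcna, the sliding clamp, had 433, 293 and 297 CPM in KO 1, 2 and 3, against 395, 213 and 253 CPM in WT 1, 2 and 3. Lig1, the ligase that joins lagging strand fragments, had 207, 156 and 159 CPM in KO, against 196, 121 and 123 CPM in WT. Blocked log2 fold changes were 0.27 ± 0.0748 for Pcna and 0.27 ± 0.0729 for Lig1 (SE), with adjusted p = 0.0468 and 0.0445 in edgeR. The 4 RFC genes, which encode the loader of Pcna, ran from 0.06 (Rfc5) to 0.13 (Rfc4), and Rfc2, Rfc4 and Rfc5 were lower in KO 3 than in WT 3. Rfc5 had 59.1, 41.7 and 37.6 CPM in KO, against 57.1, 34.5 and 41.6 CPM in WT. Fen1, a flap nuclease, and Rpa2, a single-strand binding subunit, were at 0.09 and 0.10, while Clspn, Tipin and Timeless, which link the fork to its checkpoint, were at 0.24, 0.23 and 0.20 and were not called. Whether the RFC genes differed less than the others was not tested.

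None of the 4 nucleotide supply genes, Tyms, Tk1, Rrm1 and Rrm2, was called in KO. Tyms, which makes thymidylate, had 75.6, 51.9 and 51.8 CPM in KO 1, 2 and 3, against 68.9, 41.8 and 42.3 CPM in WT 1, 2 and 3, with a blocked log2 fold change of 0.24 ± 0.0700 (SE). Rrm1, the large subunit of ribonucleotide reductase, had 473, 350.0 and 355 CPM in KO, against 465, 285 and 285 CPM in WT. Rrm2, the small subunit, which is the regulated partner in S phase, had the lowest KO minus WT of the 44 in number 1. It had 442, 292 and 278 CPM in KO, against 513, 248 and 254 CPM in WT. KO 1 was thus below WT 1 while KO 2 and KO 3 were above WT 2 and WT 3, and the log2 fold change was −0.0036 without the block and 0.05 ± 0.0864 (SE) with it, the smallest of the 44.

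Of the 9 genes of S phase control and chromatin, Uhrf1 and Chaf1b rose with the block. Uhrf1, which reads hemimethylated DNA and recruits the maintenance DNA methyltransferase behind the fork, had 384, 266 and 269.9 CPM in KO 1, 2 and 3, against 343, 192 and 199 CPM in WT 1, 2 and 3. Chaf1b, a subunit of the CAF-1 histone chaperone, had 67.9, 45.3 and 42.3 CPM in KO, against 59.3, 32.2 and 34.8 CPM in WT. Their blocked log2 fold changes were 0.36 ± 0.0747 and 0.32 ± 0.0782 (SE), with adjusted p = 0.0142 and 0.0306 in edgeR. The G1/S cyclins Ccne1 and Ccne2, the activator E2f1, the ubiquitin ligase adaptor Dtl, the histone mRNA binding protein Slbp, the CAF-1 subunit gene Chaf1a and the remodeller Hells ran from 0.17 (Ccne1) to 0.25 (Hells) and were not called. Ccne1, E2f1, Dtl and Hells were slightly lower in KO 1 than in WT 1, for E2f1 at 43.5 and 43.6 CPM, and higher in KO than in WT in numbers 2 and 3.

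The KO difference was also taken inside each number, as 1 library minus 1 library. The median over the 44 genes of KO minus WT was 0.07 in number 1, 0.34 in number 2 and 0.23 in number 3 (log2 CPM with a prior count of 2). KO was higher in 37 of the 44 in number 1, 44 in number 2 and 40 in number 3, against 50.1%, 53.9% and 47.1% of all tested genes, and in all 3 numbers in 33 of the 44, against 22.6%. An interaction of genotype with number 1 was fitted over all 6 libraries, with KO 1 and WT 1 assumed to vary like the rest. It called 0 of the 44 and 0 of all 13683 genes in edgeR, with 11 and 472 at an unadjusted p under 0.05, and its median over the 44 was −0.19, against −0.0196 over all tested genes. The fit has 1 library per genotype in number 1, which limits what it can call.

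**Figure D4:**
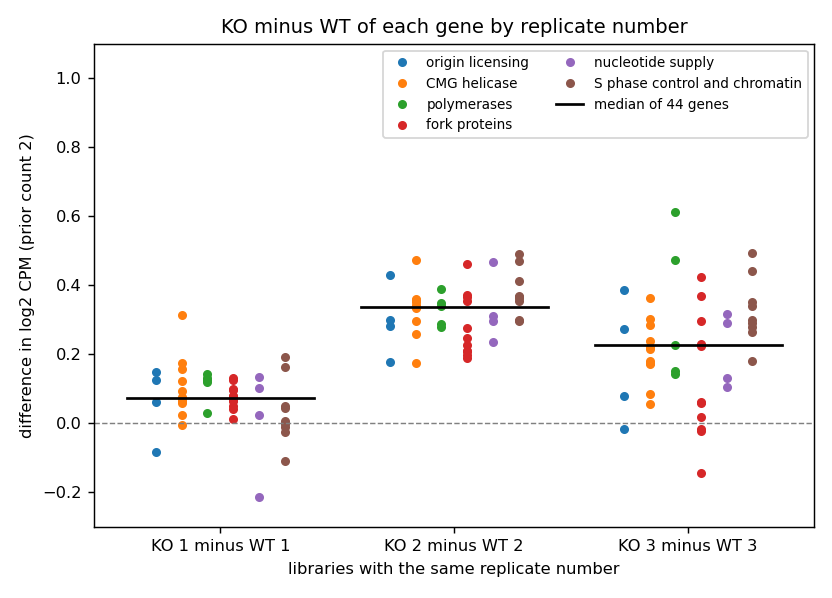
KO minus WT in log2 CPM of each gene (dots, coloured by function) for the libraries that share a replicate number; black bars mark the median of the 44 genes, at 0.07, 0.34 and 0.23. Rrm2 is the lowest dot in number 1, Rfc5 the lowest in number 3 and Pole the highest in number 3.

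Across the 3 replicate numbers, with the genotype in the fit, all 44 genes differed in edgeR's quasi-likelihood F test, with adjusted p from 3.28e-05 to 0.0459, where 49.0% of all tested genes did. All 44 were higher in number 1, against 24.1% of all tested genes called in that direction, with a median of 0.61 on the log2 scale, a 1.53-fold difference, against −0.0111 over all tested genes. What the number stands for is not given in the labels, so litter, culture, passage and library preparation cannot be told apart. The summed neural stem cell markers were lowest in the number 1 libraries, at 9912 CPM in KO 1 and 9931 CPM in WT 1, and the summed neuron markers were highest there, at 765 CPM in each. The summed astrocyte markers were lowest there within each genotype, at 218 CPM in KO 1, against 252 and 255 CPM in KO 2 and KO 3, and at 353 CPM in WT 1, against 502 and 522 CPM in WT 2 and WT 3. Map2, with group means of 626 CPM in KO and 558 CPM in WT, made up most of the neuron sum. Tubb3 was at 6.59 and 7.15 CPM. Vim was the largest part of the stem cell sum, at 4567 ± 445 CPM in KO and 4591 ± 523 CPM in WT (SD, n = 3). Nes spread more widely for its mean, at 1104 ± 558 CPM in KO and 1046 ± 599.6 CPM in WT. The stem cell sum thus need not give the direction of each of its markers in number 1. The sums thus need not follow cell types. For all 3 marker lists, their part in the difference was not tested. Hells had the largest difference, 1.09 ± 0.0970 (SE), with 83.1 CPM in KO 1 and 84.6 CPM in WT 1, against 44.6 and 45.9 CPM in KO 2 and KO 3 and 36.2 and 32.5 CPM in WT 2 and WT 3. Ccne2 followed at 1.05 ± 0.0886, Orc1 at 0.95 ± 0.106, Ccne1 at 0.91 ± 0.0966 and Cdc6 at 0.86 ± 0.0755 (log2, SE). Rfc2 and Gins4 had the smallest, both at 0.24, with SEs of 0.0733 and 0.0763. The median was 0.77 for origin licensing, 0.69 for the CMG helicase, 0.67 for S phase control and chromatin, 0.60 for nucleotide supply and 0.57 for both fork proteins and polymerases. Polymerases thus had the highest group median for KO (0.25) and, level with fork proteins, the lowest for the number, although neither order was tested.

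Levels were also set per length of exon, so that genes can be compared with each other (counts per kilobase of exon, scaled to sum to 1000000 in each library, with exons merged over transcripts in GENCODE vM21 on GRCm38). Pcna, at 529 ± 110 in KO and 450.5 ± 144 in WT, and Rrm2, at 453 ± 109.9 in KO and 460.4 ± 201 in WT (SD, n = 3), were the 2 highest of the 44. Pcna was the higher of the pair in KO and Rrm2 in WT. Both led the 44 by their mean over all 6 libraries with each of 3 definitions of length tried, and Orc1 was the lowest with each, at 12.3 ± 4.11 in KO and 10.6 ± 4.78 in WT. The SDs exceed the difference between Pcna and Rrm2, so their order is not resolved. The 6 MCM genes lay within 1.92-fold of each other, from Mcm2 at 115 ± 28.6 in KO and 104 ± 41.7 in WT to Mcm7 at 221 ± 53.0 in KO and 199.6 ± 67.8 in WT (per-length levels, SD, n = 3). Mcm7 was the highest MCM gene with each definition of length, but Mcm2 was the lowest with merged exons alone: by longest transcript its level was 169 in KO and 154 in WT, above Mcm5 at 143 in KO and 128 in WT. The order of the MCM genes below Mcm7 thus depended on the length used. The GINS genes, whose products form a complex with 1 copy of each subunit, spanned 5.46-fold, from Gins3 at 18.0 ± 1.97 in KO and 16.004 ± 4.17 in WT to Gins4 at 95.5 ± 6.86 in KO and 90.3 ± 9.23 in WT. Exons of the opposite strand cover 78.8% of the Fen1 exons, 67.3% of the Gins2 exons and 52.5% of the Chaf1a exons; the sources used here do not say that counting used strand, so these values may hold reads of the neighbouring gene.

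**Figure D5:**
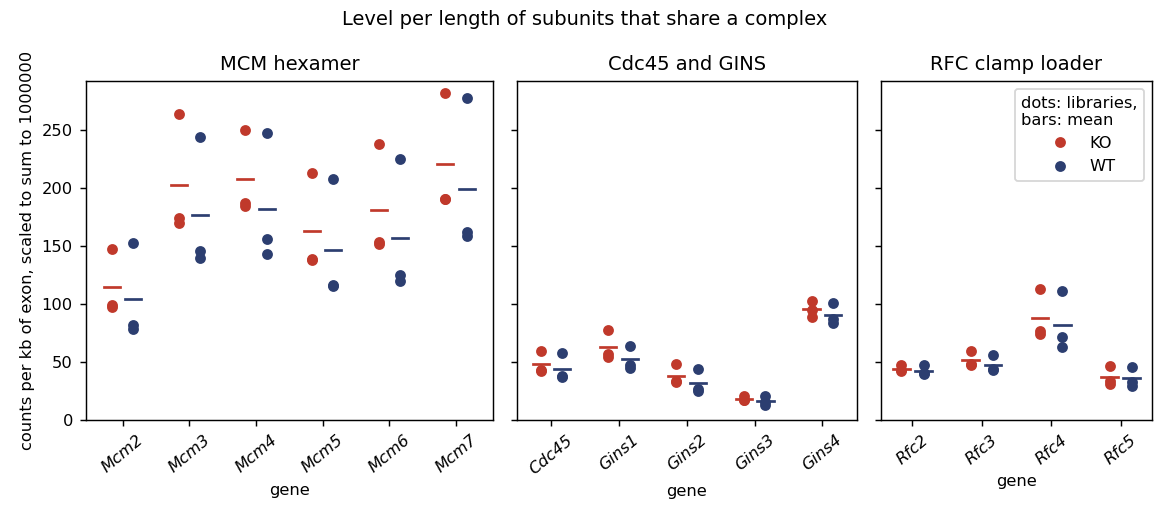
Level per length (counts per kilobase of exon, scaled to sum to 1000000 in each library) of the genes of the MCM ring, of Cdc45 with GINS and of RFC in each KO library (red) and WT library (blue), with group means as bars. The MCM genes sit within 1.92-fold of each other by their mean, while Gins3 lies far under Gins4.

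The promoters of the 44 genes were searched for the letters of 3 cell cycle motifs. RefSeq promoter windows on GRCm38.p6, 250 bases before to 50 after a start, were on hand for 36 of the 44 genes, in 41 windows. An E2F motif was counted as TTTGGCGC, TTTCGCGC, TTTCCCGC or TTTGCCGC on either strand, overlapping matches counted separately. It stood in 16 of the 41 windows (39.0%), against 2.26% of all 32851 windows, and in 16 of the 36 genes. CCAAT, the letters of the NF-Y site, on either strand stood in 56.1% of the members' windows, against 37.4% of all windows, and TTTGAA, the letters of the cell cycle homology region, in 9.76%, against 17.9%. By function, the E2F letters were in 3 of 4 origin licensing genes, 5 of 7 CMG helicase genes with a window, 2 of 4 polymerase genes, 3 of 9 fork protein genes, 0 of 4 nucleotide supply genes and 3 of 8 genes of S phase control and chromatin. A match is a string of letters, not a measured binding site. Of the 9 genes that rose with the block, Pole had no window, Pcna and Chaf1b had a window with no E2F letters, and the other 6 had them in a window. Lig1 and Uhrf1 also had windows without them. The Lig1 window with the letters, chr7:13278576-13278875, lies downstream of the annotated gene start at 13277283. For Uhrf1 the window without them, chr17:56303087-56303386, holds the annotated gene start at 56303321. The windows of 5 of these are shown, with E2F and CCAAT letters in capitals, read 5′ to 3′ on the gene's strand, to show where the letters lie around the start.
Mcm3, chr1:20820263-20820562, minus strand: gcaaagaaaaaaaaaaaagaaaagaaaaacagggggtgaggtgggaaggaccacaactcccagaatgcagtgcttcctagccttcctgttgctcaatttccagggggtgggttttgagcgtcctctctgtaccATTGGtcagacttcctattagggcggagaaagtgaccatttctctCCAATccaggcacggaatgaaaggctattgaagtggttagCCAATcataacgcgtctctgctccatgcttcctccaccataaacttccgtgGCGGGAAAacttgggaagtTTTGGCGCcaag
Mcm6, chr1:128359656-128359955, minus strand: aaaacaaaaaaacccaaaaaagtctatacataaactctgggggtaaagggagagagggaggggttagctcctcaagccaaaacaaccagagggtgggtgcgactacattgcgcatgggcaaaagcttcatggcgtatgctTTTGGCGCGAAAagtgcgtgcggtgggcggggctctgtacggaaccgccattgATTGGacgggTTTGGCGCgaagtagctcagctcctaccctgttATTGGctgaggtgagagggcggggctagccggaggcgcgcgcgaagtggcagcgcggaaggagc
Pola1, chrX:93632106-93632405, minus strand: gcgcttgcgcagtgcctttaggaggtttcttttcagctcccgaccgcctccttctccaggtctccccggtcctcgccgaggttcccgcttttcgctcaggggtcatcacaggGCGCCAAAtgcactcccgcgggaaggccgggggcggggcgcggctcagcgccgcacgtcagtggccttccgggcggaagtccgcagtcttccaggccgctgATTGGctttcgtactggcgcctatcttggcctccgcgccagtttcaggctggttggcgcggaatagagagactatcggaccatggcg
Pold1, chr7:44548766-44549065, minus strand: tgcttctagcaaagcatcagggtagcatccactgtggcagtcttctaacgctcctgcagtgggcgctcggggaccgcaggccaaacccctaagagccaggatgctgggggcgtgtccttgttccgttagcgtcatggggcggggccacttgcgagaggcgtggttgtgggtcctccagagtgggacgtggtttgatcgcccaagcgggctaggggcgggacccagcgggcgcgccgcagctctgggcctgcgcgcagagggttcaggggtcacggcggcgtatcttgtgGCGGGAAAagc
Uhrf1, chr17:56304063-56304362, plus strand: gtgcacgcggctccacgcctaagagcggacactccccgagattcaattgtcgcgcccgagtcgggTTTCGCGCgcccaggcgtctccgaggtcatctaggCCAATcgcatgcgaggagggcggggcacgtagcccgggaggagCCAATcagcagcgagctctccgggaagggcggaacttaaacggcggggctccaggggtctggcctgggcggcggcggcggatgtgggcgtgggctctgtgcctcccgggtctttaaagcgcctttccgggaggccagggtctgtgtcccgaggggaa
In Mcm6, 2 E2F matches overlap at 110 and 106 bases before the start, in one stretch, and another lies 47 bases before it. Mcm3 has its E2F letters after the start and 3 CCAAT matches before it, and Pold1 has a single E2F match after the start and no CCAAT. Pola1 and, in the window shown, Uhrf1 have a single E2F match upstream.

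The rest of the pathway was followed in 4 further lists. Of 47 other replication factors, 5 rose and 0 fell with the block (against 3.33% of all tested genes higher), with a median log2 fold change of 0.17, and 0 were called without it. Pold2, the small subunit of polymerase delta, had 118, 68.4 and 65.1 CPM in KO 1, 2 and 3, against 94.9, 46.0 and 50.2 CPM in WT 1, 2 and 3, a blocked log2 fold change of 0.42 ± 0.0721 (SE) with adjusted p = 0.00531 in edgeR. Nasp, a histone chaperone, and Dbf4, the activator of the origin-firing kinase, rose by 0.28 ± 0.0644 and 0.27 ± 0.0680 (log2, SE) with the block. Of 20 G2/M genes 5 rose and 0 fell with the block, against 3.33% of all tested genes higher and 6.46% lower. Aurkb, Ncapg and Anln were at 0.36, 0.35 and 0.34. The median of the 20 was 0.26, against 0.21 for the 44 replication genes. All 20 were higher in KO in each of the 3 numbers, against 33 of the 44 and 22.6% of all tested genes. KO 1 and WT 1 were both above the other 4 libraries in 19 of the 20, against 30.9% of all tested genes. Among 24 regulators of E2F and RB, 2 rose and 1 fell with the block, against 3.33% of all tested genes higher and 6.46% lower. The repressor E2f8 rose by 0.41 ± 0.0871 and the DREAM target and activator Mybl2 by 0.32 ± 0.0887 (log2, SE). Ccnd2, a D-type cyclin, fell by 0.40 on the log2 scale, with 1245, 1065 and 1064 CPM in KO and 1638, 1551 and 1276 CPM in WT. With KO 2 and KO 3 summed and number 1 as the block, 1 other replication factor, 0 G2/M genes and 0 regulators were called, against 688 of 13930 tested genes.

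Of 7 genes for inhibitors of cyclin-dependent kinases, 4 fell and 0 rose with the block, against 6.46% of all tested genes lower. Cdkn2b, an inhibitor of Cdk4 and Cdk6, had 11.5, 9.83 and 8.06 CPM in KO 1, 2 and 3, against 17.7, 19.1 and 21.3 CPM in WT 1, 2 and 3. Cdkn2a had 14.8, 16.4 and 16.2 CPM in KO, against 22.5, 29.9 and 32.4 CPM in WT. All 3 KO values were below the 3 WT values for Cdkn2a, Cdkn2b and Cdkn1a, against 6.71% of all tested genes. The blocked log2 fold changes were −0.99 ± 0.135 for Cdkn2b and −0.83 ± 0.0935 for Cdkn2a (SE), with adjusted p = 0.00145 and 0.000503 in edgeR, and 0.177 and 0.206 without the block. Cdkn1c, which had 3.53, 8.20 and 7.88 CPM in KO and 4.72, 11.9 and 13.7 CPM in WT, and Cdkn1a fell by 0.59 and 0.32 on the log2 scale with the block. Cdkn1b, Cdkn2c and Cdkn2d were at 0.15, 0.16 and 0.16 and were not called, so the inhibitors did not share 1 direction. Cdkn2b was not called across the replicate numbers, with adjusted p = 0.894 in the edgeR F test. With KO 2 and KO 3 summed, 2 of the 7 fell, against 530 of 13930 tested genes.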

How the data were processed

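RNA-seq libraries of KO and WT neural stem cells were compared from 1 table of whole-number counts for each symbol, which the authors deposited without normalization. Per the submitters' processing notes, FastQC, cutadapt, Trim Galore, Bowtie2 and RSEM were used with mm10; no source used here gives their versions, the annotation, the strand setting or how RSEM's estimates were made whole. Groups and numbers came from the sample titles.

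Genes were kept by filterByExpr, scaled by TMM and tested with edgeR 4.0.16 in R 4.3.3 (glmQLFit, robust, and glmQLFTest, two-sided), with Benjamini-Hochberg adjustment over all 13683 tested genes and calls at adjusted p under 0.05. DESeq2 1.42.0 was an alternative. Standard errors are the log2 fold change over the square root of F. The scripts' tests were tested on simulated data. Pclaf was matched to the table as 2810417H13Rik through RefSeq synonyms on GRCm38.p6.

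KO and WT share the numbers 1 to 3. Deviations from the group mean correlated across genes at 0.854 (KO 1 with WT 1), 0.604 (KO 2 with WT 2) and 0.580 (KO 3 with WT 3). All were over 0.1, so the numbers were treated as pairs, which rests on the data and not on the labels. The crossed matches were about as high, at 0.578 (KO 2 with WT 3) and 0.633 (KO 3 with WT 2). The check thus set number 1 apart in both groups but cannot tell how numbers 2 and 3 pair. Fold changes of single genes are the blocked ones unless stated, so they rest on a pairing of numbers 2 and 3 that is not settled. The fit without the block, which called 0 of the 44, was the main one, since the labels do not pair the libraries. KO 2 and KO 3 differed by more than counting noise (median chi-square 1.02 per gene, against 0.455 from counting alone) and were kept as 2 samples. They were far more alike than the rest: WT 2 with WT 3 gave 5.25, and pairs with number 1 in a group gave 22.7 to 34.5. An excess over counting noise cannot show that they are independent, since 2 libraries of 1 culture can differ by more than counting noise too. The fit with KO 2 and KO 3 summed is therefore given beside the others.

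The members, lists, tests and alternatives were chosen with earlier results of these data known. Genes named are all members called in either fit, in each function the 2 with the lowest blocked p and the one with the highest level per length, Phf2, and up to 3 per other list by lowest blocked p; Cdt1, Mcm2, the GINS, RFC and cyclin E genes, Hells, E2f1 and other members were named after their values were seen.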

Additional observations from a re-analysis of the deposited data

How the results depend on the processing

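Results were recomputed with other scalings, without a filter, with DESeq2 and without each library. Number 1 as the block, the principal transcript, the genotype by number 1 interaction, and leaving out libraries across the numbers and per length were chosen after seeing the data. For KO against WT, genes called numbered 8 without a block, 262 by DESeq2 and 0 to 21 without 1 library. With the replicate block, which compares same-numbered libraries as pairs, 1340 were called, against 1255 by DESeq2, 1310 with upper-quartile scaling, 1251 with RLE scaling and 1037, 1248 and 1456 without number 1, 2 and 3. Numbers 2 and 3 alone gave 743, KO 2 and KO 3 summed gave 688, and number 1 as the block gave 1445. Replication genes called numbered 0 without the block, 9 with it, 11 with it in DESeq2, 4 with upper-quartile scaling and 12 with RLE scaling. They numbered 6, 2 and 8 of 44 without number 1, 2 and 3, all higher in KO. Of all tested genes, 359 of 13764, 510 of 13756 and 569 of 13692 were higher in those fits. The 2 of 44 without number 2 were thus near the share of all genes. Replication genes called numbered 9 in numbers 2 and 3 alone, 9 with number 1 as the block and 0 with KO 2 and KO 3 summed. Over the 4 pathway lists the calls numbered 0, 3 by DESeq2, 17 with the block, 28 with it in DESeq2, 13 with upper-quartile and 18 with RLE scaling, 22, 17 and 19 without number 1, 2 and 3, 18 in numbers 2 and 3 alone, 3 with KO 2 and KO 3 summed and 20 with number 1 as the block. The causes of these shifts were not tested.

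The unblocked median of the 44 genes, 0.19 on the log2 scale, ran from 0.013 without KO 1 to 0.50 without WT 1, and was 0.055 without WT 2. Without KO 1, the unblocked medians were −0.092 for origin licensing (−0.012 without WT 2), −0.040 for the CMG helicase and −0.0011 for fork proteins, and without WT 1 they were 0.51, 0.51 and 0.42. The values of Mcm3, Mcm6, Mcm7, Cdc6, Orc1, Orc6 and Nasp were −0.040, −0.047, −0.073, −0.13, −0.10, −0.083 and −0.0047 without KO 1, and 0.55, 0.61, 0.51, 0.57, 0.70, 0.32 and 0.61 without WT 1. Orc6 was at −0.048 without WT 2. Rrm2, −0.0036 as reported, was 0.0070 with RLE scaling and in DESeq2, 0.050 with the block, 0.060 with the block in DESeq2 and with RLE scaling, 0.021 with the block and upper-quartile scaling, 0.18 in numbers 2 and 3 alone, 0.018 with KO 2 and KO 3 summed and 0.051 with number 1 as the block. Without 1 library Rrm2 ran from −0.25 to 0.44, and with the block and without 1 number from 0.0080 to 0.18.

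Across the replicate numbers 6703 genes were called, 3968 with genotype left out of the fit and 4577 to 8961 without 1 library; of the 44 replication genes, 41 to 44 were. The span of the MCM levels per length, 1.92-fold, was 1.74-fold by longest and 1.72-fold by principal transcript. The E2F letters were in 16 genes, and GGCGC alone was in 31 of 36 (36.9% of all windows). The 44 genes had 297 to 23575 counts per library; what depth limits was not tested.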
